A study of Mus musculus with 24 samples.

Results

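The BET bromodomain inhibitor JQ1 at 500 nM was applied for 6 hr or 24 hr to unstimulated Th1 cells, and its effect was read on 4 of the 24 arrays of the series. The 4 arrays were chosen by a rule on their labels, though this rule and the gene lists were set with earlier results of these data known. The arrays are every unstimulated Th1 array with 500 nM JQ1 together with the array of DMSO, the vehicle, of the same time. The groups were DMSO for 6 hr, 500 nM JQ1 for 6 hr, DMSO for 24 hr and 500 nM JQ1 for 24 hr, each with 1 array. All cells came from female C57BL/6 mice, had been differentiated in vitro to Th1 cells and were not reactivated before harvest. Every array also carried RNA of naive CD4+CD62L+CD25-CD44lo T cells of the same strain and sex, taken from lymph nodes and spleens, as a reference in the other dye. The values are therefore log2 ratios of Th1 over naive RNA, and 0 means the level of the naive cells. The labels do not say how many mice or cultures stood behind an array. With 1 array per condition a single pair has no replicate check. Tests of the drug effect were therefore made on the mean change over the 2 pairs, which share no array. P-values rest on the spread between these pairs, which may be technical, with 1 residual degree of freedom per gene. That spread was moderated across genes with 36.5 prior degrees of freedom, so it came mostly from all genes together. A call (adjusted p below 0.05) therefore does not show that a gene changed in both pairs. Of genes classed below as lower at 24 hr alone, 75 of 78 were called, and of those at 6 hr alone, 50 of 55. Both arrays of a time lay on 1 slide, slide 1 for 6 hr and slide 3 for 24 hr, so the drug effect was read within a slide, whereas time and slide cannot be told apart.

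BET proteins, such as Brd2 and Brd3, bind acetylated histones, and the family helps to bring the kinase complex P-TEFb (Cdk9 with cyclin T) to genes, where it releases paused RNA polymerase II into elongation. JQ1 occupies the bromodomains and displaces these proteins from chromatin, and genes near large enhancers are often the most sensitive. Th1 cells are the helper T cells defined by the transcription factor T-bet (Tbx21) and by interferon gamma (Ifng). The study used these arrays to ask how far the genes of T helper cells depend on elongation factors.

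The labelled cell type was checked first. All 30 of 30 Th1 genes of a marker list were well above background in the sample channel on all 4 arrays, as were 6 of 6 T cell markers. The log2 ratio of Tbx21 over naive cells was 5.41, 5.16, 5.55 and 5.13 on the DMSO 6 hr, JQ1 6 hr, DMSO 24 hr and JQ1 24 hr arrays, the order used throughout, and that of Ifng was 7.15, 6.04, 7.08 and 5.48. Il4, Il5, Il13 and Il17a, which mark other helper lineages, were too dim to be tested. Of markers of other cells, 4 of 7 for B cells, 2 of 2 for CD8 T cells, 2 of 7 for myeloid cells and 1 of 5 for NK cells were above background on all 4 arrays. The summed B cell signal (log2) was 10.93, 10.03, 10.71 and 10.05 and that of the CD8 markers 8.45, 7.86, 8.96 and 8.09, so both lay lower with JQ1 at either time. The sum of the T cell markers was lower as well, at 17.27, 16.61, 18.09 and 17.47. The myeloid sum was 13.63 with DMSO and 13.71 with JQ1 at 6 hr and 13.58 and 13.67 at 24 hr, and the NK sum was 9.10 and 8.77 with DMSO and JQ1 at 6 hr and 8.88 and 9.47 at 24 hr. Of the markers tested, 3 of 4 for B cells, among them Cd79b (-1.63 and -1.001 at 6 and 24 hr) and Ms4a1 (-1.44 and -0.73), and 2 of 2 for CD8 T cells, Cd8a (-0.94 and -0.88) and Cd8b1 (-0.36 and -0.70), were called lower by limma, and the part of such cells in the results below was not tested. In bulk RNA, fewer cells of a type and less RNA per cell cannot be told apart. Sample signal stood clear of background for 48.8% and 46.5% of probes on the DMSO and JQ1 arrays of 6 hr, and 50.8% and 49.7% on those of 24 hr. The reference channel, which should hold the same kind of RNA on every array, differed within the 6 hr and the 24 hr pair with an SD of 0.129 and 0.143 (log2), and 0.051% and 0.133% of its probes differed by 2-fold or more.

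Over the 12417 genes tested, more were lower than higher with JQ1 at either time on the loess scale. At 6 hr 542 genes (4.36%) were at least 2-fold lower and 266 (2.14%) at least 2-fold higher, and at 24 hr these were 629 (5.07%) and 297 (2.39%). These counts rest on 1 pair each. At both times, 319 genes were at least 2-fold lower and 162 at least 2-fold higher, and 0 genes moved past 2-fold in opposite directions. Across the pairs the lists overlapped in part. Of the genes lower at 6 hr, 58.9% were also lower at 24 hr, and of those lower at 24 hr, 50.7% were also lower at 6 hr. For genes that were higher these shares were 60.9% and 54.5%. After a shift of the arrays to equal spike-in RNA, 364 genes were lower and 458 higher at 6 hr, which turns the order, and 93.4% of the genes lower at 6 hr but 14.6% of those higher were so at 24 hr too. Among genes lower by 2-fold at 6 hr, 98.3% lay below 0 at 24 hr, where 54.9% of all genes did, and their median change at 24 hr was -1.14. Across genes, which are not independent replicates, the changes of both pairs correlated with Pearson's r = 0.758 and a Spearman rank correlation of 0.692. By limma over both pairs, with time as a block, 1396 genes (11.2%) were called higher and 2272 (18.3%) lower at a Benjamini-Hochberg adjusted p below 0.05. The split depended on scaling: it was 811 higher and 3607 lower when arrays were centred on their median in place of loess, which moved the median of all genes from -0.042 to -0.189. After the spike-in shift it was 114 higher and 600 lower. Changes below are relative to the loess scale.

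**Figure D1:**
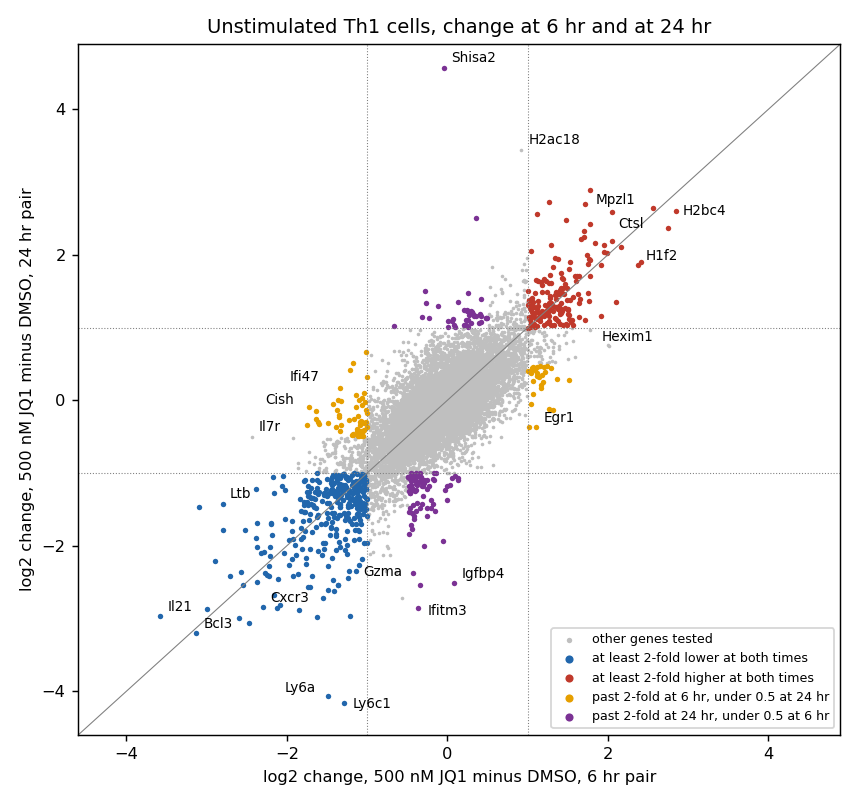
Each point is 1 of the 12417 genes tested, with its log2 change (500 nM JQ1 minus DMSO) in the 6 hr pair on the x axis and in the 24 hr pair on the y axis; dotted lines mark 2-fold and the solid line equal change. Most large changes follow the diagonal (319 genes in blue, 162 in red), while Ly6c1, Ly6a and Ifitm3 lie far below it and no point lies past 2-fold in opposite corners.

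Genes lower with JQ1 were more often expressed above the level of naive cells than other genes were. To keep choice and reading apart, genes were chosen in one pair and read in the other. The 542 genes lower at 6 hr had a median log2 ratio over naive cells of 0.644 on the DMSO 24 hr array and -0.448 on the JQ1 24 hr array, and the share above the naive level was 67.9% and 37.3%. Over all genes tested the medians were 0.080 and 0.041, with 55.4% and 52.7% above the naive level. The 629 genes chosen at 24 hr read the same way at 6 hr, with medians of 0.605 without and -0.314 with JQ1. Genes chosen as higher at 6 hr lay close to the naive level without the drug at 24 hr, at a median of 0.060, and above it with the drug, at 1.11. These are descriptions of the 2 pairs and carry no test.

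The 10 largest mean falls were those of Il21, Bcl3, Sla, Fut7, Ly6a, Podnl1, Ly6c1, Cxcr3, Ffar2 and Tnfsf8. Il21 encodes a cytokine that acts on B and T cells. Its log2 ratio over naive cells was 4.86, 1.28, 3.40 and 0.43, so both JQ1 arrays lay far below both DMSO arrays (mean change -3.27, SE 0.18, limma adjusted p = 1.1e-16). Bcl3, an atypical IkB protein that works with p50 and p52 in the nucleus, had ratios of 1.73, -1.40, 1.16 and -2.04 and went from above to below the naive level (mean change -3.17, SE 0.17, limma adjusted p = 1.1e-16). Sla, an adaptor that dampens T cell receptor signalling, did the same, with ratios of 1.54, -1.46, 0.55 and -2.33 (mean change -2.94, SE 0.17, limma adjusted p = 7.53e-16). Trafficking genes were among the 10 largest falls. Cxcr3, the receptor that takes Th1 cells to sites of interferon gamma, read 4.04, 1.74, 4.72 and 1.87 (mean change -2.57, SE 0.17, limma adjusted p = 4.68e-14). Fut7, the fucosyltransferase that builds selectin ligands, read 3.93, 1.33, 4.56 and 1.57 (mean change -2.79, SE 0.17, limma adjusted p = 4.84e-15). For both genes DMSO and JQ1 arrays were further apart than the 2 DMSO arrays were from each other. Changes were -2.47 at 6 hr and -3.07 at 24 hr for Podnl1, -2.71 at 6 hr and -2.42 at 24 hr for Ffar2, a receptor for short-chain fatty acids, and -2.90 at 6 hr and -2.21 at 24 hr for Tnfsf8, the CD30 ligand. All 3 were called lower, with limma adjusted p of 9.25e-15, 2.83e-14 and 8.26e-14. The Ly6 surface proteins Ly6a (Sca-1) and Ly6c1 completed the 10 and are described with the late changes.

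**Figure D2:**
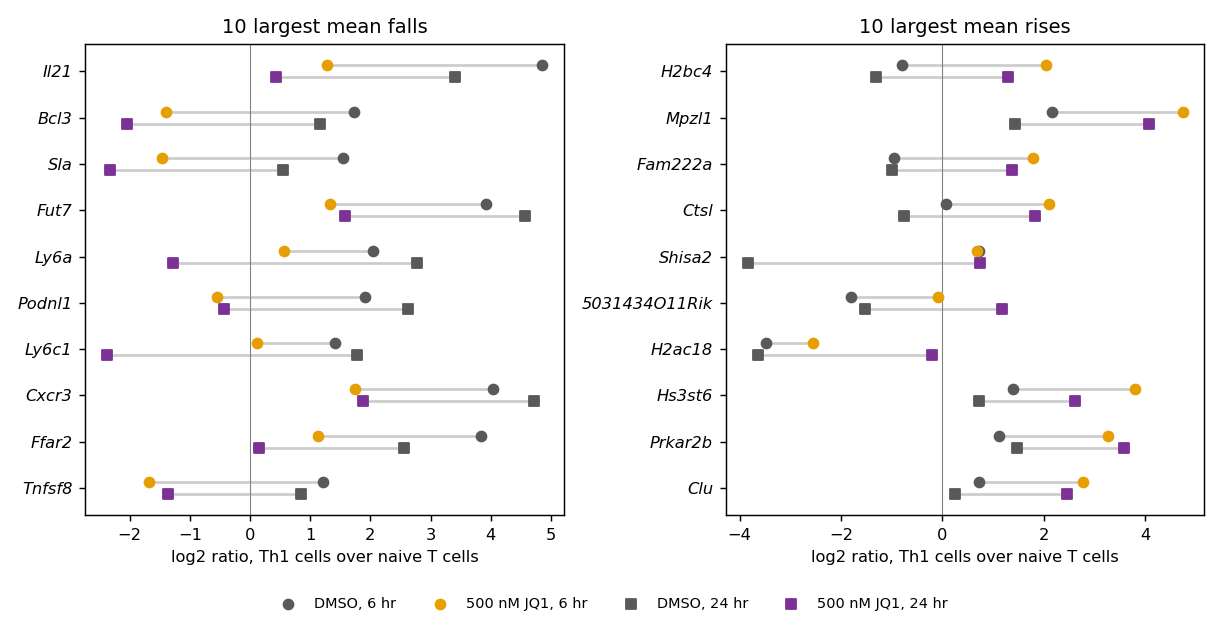
The log2 ratio of Th1 over naive T cells on each of the 4 arrays (1 array per point, no error bars) for the 10 genes with the largest mean fall and the 10 with the largest mean rise, with the 6 hr pair in circles and the 24 hr pair in squares. DMSO points of both times lie together for most genes and apart from the JQ1 points, and in the Shisa2 row the DMSO 24 hr point alone stands apart.

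Some genes were too dim to measure on both arrays of a treatment, so that only a bound can be given, in the sample channel alone. It compares the brighter treatment with, on each dimmer array, the lowest signal well above background or the gene's own signal where that is higher. These genes entered the fit only through the arrays on which they were bright, so they are described without a test. Of the 12417 genes 323 were of this kind, and without them 1355 were called higher and 2182 lower. With JQ1, Il1rl1, the IL-33 receptor ST2, was at least 4.72-fold lower in this channel, Cd70, the ligand of Cd27, at least 3.36-fold, Ccr2 at least 2.99-fold and Cd93 at least 2.34-fold. Mcf2l was at least 4.78-fold lower there, but its reference signal also changed, by -0.70 and -0.60 (log2) at 6 and 24 hr. In the other direction, Ngfr, a neurotrophin receptor, was at least 2.73-fold higher, Smpd3 at least 2.31-fold, Trnp1 at least 2.21-fold and Hlf, a transcription factor, at least 2.01-fold. Gm648 is given no bound, because at 24 hr its reference signal differed by 1.24.

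Of 30 Th1 genes, 21 were called lower and 0 higher, against 18.3% and 11.2% of all genes, and their median change was -0.98 where that of all genes was -0.042. At 6 hr 14 and at 24 hr 17 of them were at least 2-fold lower. The list held the receptors through which IL-12 and IL-18 sustain Th1 cells. Il18r1 had log2 ratios of 1.96, -0.59, 2.68 and 0.14 (mean change -2.54, SE 0.17, limma adjusted p = 2.83e-14) and its partner Il18rap 4.14, 1.75, 3.15 and 1.27 (mean change -2.14, SE 0.17, limma adjusted p = 3.76e-12). For the IL-12 receptor, Il12rb2 changed by -1.17 and -1.16 at 6 and 24 hr and Il12rb1 by -0.61 and -1.35, and Stat4, which both signal through, by -1.37 and -1.10 (limma adjusted p = 1.04e-06, 4.57e-05 and 4.09e-07). Effector products fell too. The death ligand Fasl changed by -1.77 and -1.79, and the chemokines Ccl3 by -1.38 and -1.30 and Ccl4 by -1.16 and -1.62. Ifng remained far above the naive level on every array, with the ratios given above, and was called lower (mean change -1.35, SE 0.17, limma adjusted p = 1.05e-07). In the sample channel alone its change was -2.002 and -2.65 at 6 and 24 hr, larger than in the ratio, since its reference signal was also lower on the JQ1 arrays. The same held for Ccl3 (-1.60 and -1.94) and for Cxcr3 (-2.74 and -3.52). The lineage factor itself was not called: Tbx21 differed by -0.26 and -0.42 (limma adjusted p = 0.139), and by -0.59 and -0.74 in the sample channel. Neither were Tnf (-0.054), Ccl5 (-0.40), Hlx (-0.15) and Bhlhe40 (-0.20, but -1.02 and -1.18 in the sample channel at 6 and 24 hr), whereas 2 other factors of the lineage, Eomes (-0.83, adjusted p = 0.000493) and Runx3 (-0.56, adjusted p = 0.013), passed.

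Genes of other helper lineages that could be measured in these cells were also more often called lower than higher. Of 11 Th2 genes, 6 were called lower and 1 higher, or 5 and 1 of 9 without Il1rl1 and Il10, which were not well above background with JQ1, where 18.3% of all genes tested were called lower and 11.2% higher. Ccr4 changed by -1.18 and -1.12 at 6 and 24 hr, and Gata3, the Th2 lineage factor, which lay below naive cells on every array, by -0.49 and -0.49 (limma adjusted p = 0.0266). Maf was called higher (0.28 and 0.66, adjusted p = 0.0341). Among 9 measured genes of Th17, regulatory and follicular helper cells, 5 were called lower, Il21, Ccr6 (-2.52 and -1.79), Il2ra, Ikzf2 and Cxcr5, and 1 higher, the follicular factor Bcl6 (0.15 and 0.95, adjusted p = 0.0188), beside the same shares of all genes. Foxp3 (0.15) and Rora (0.35) did not pass. Several of these genes stand on more than 1 list, and each list counts them.

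**Figure D3:**
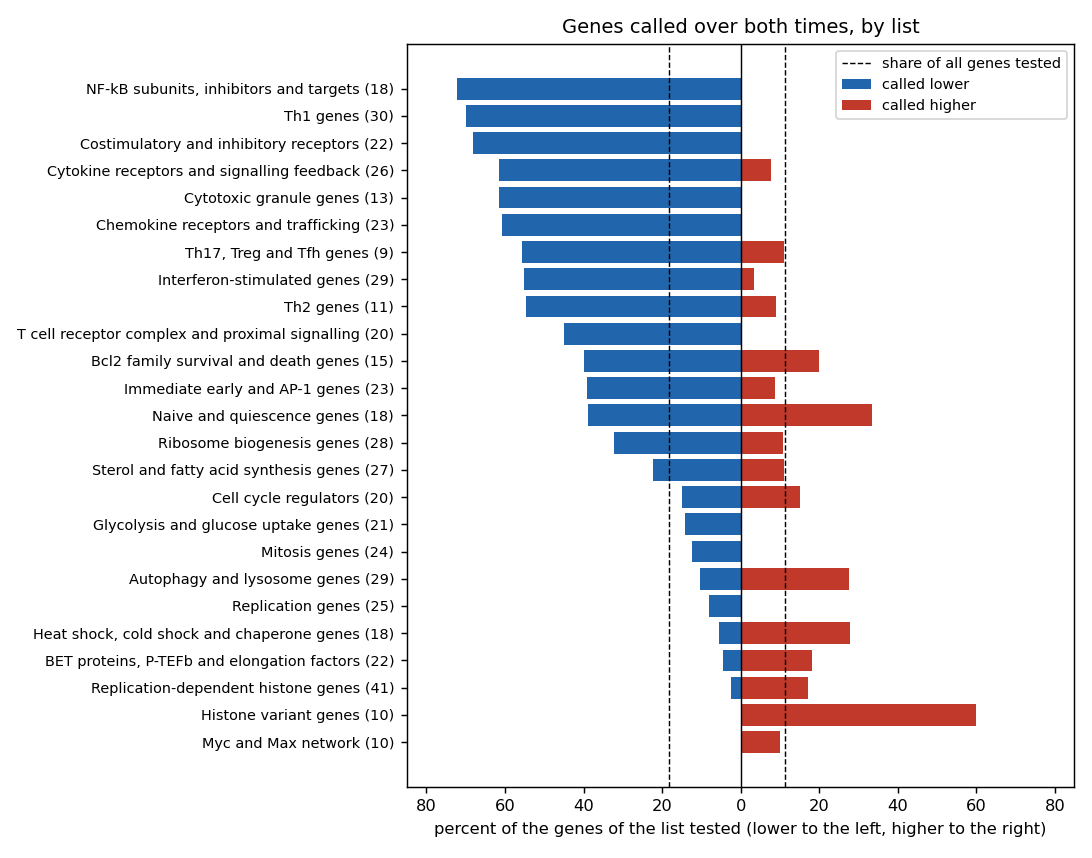
For each gene list (number of genes tested in brackets), bars give the percent of its genes called lower (left) or higher (right) by limma over both times, and dashed lines give the 18.3% and 11.2% of all genes tested. Lists of immune effector, receptor and NF-kB genes have the longest bars to the left, and histone variants the longest to the right.

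Surface receptors filled 3 lists in which most genes were called lower, also without the 1 gene of each list that was too dim with JQ1 (Il1rl1, Ccr2 and Cd160), left out after the data were seen. The 3 counts stand beside 18.3% of all genes called lower and 11.2% called higher. Of 26 cytokine receptor and feedback genes 16 were called lower, or 15 of 25 without Il1rl1, and 2 higher, Socs2 (0.54, adjusted p = 0.0191) and Pim1 (0.45, adjusted p = 0.0421). The interferon gamma receptor chains fell, Ifngr1 with changes of -1.44 and -1.55 at 6 and 24 hr and Ifngr2 with -1.43 and -1.03, and the IL-2 receptor chains Il2ra (-1.09 in the ratio, -2.18 and -2.18 in the sample channel at 6 and 24 hr), Il2rb (-0.77) and Il2rg (-0.47) were all called lower. Of 23 genes for chemokine receptors and trafficking, 14 were called lower and 0 higher (median -0.58), or 13 of 22 without Ccr2. Beside Cxcr3, these included Ccr6 and the lymphoid trafficking genes Ccr7 (-0.89 and -0.37) and S1pr1 (-1.23 and -0.28), both of which lay below the naive level with DMSO. Among 22 costimulatory and inhibitory receptors, 15 were called lower and 0 higher (median -0.69), or 14 of 21 without Cd160. Btla, an inhibitory receptor, had ratios of -1.67, -4.04, -1.99 and -3.67 (mean change -2.02, SE 0.18, limma adjusted p = 2.22e-11), and the checkpoint receptors Ctla4 (-1.07 and -2.18), Havcr2 (-1.17 and -1.92), Pdcd1 (-0.85 and -1.16) and Tigit (-0.90 and -1.02) were called lower. So were the costimulatory receptors Icos (-0.996 and -1.41), Tnfrsf18 (-1.64 and -1.74) and Tnfrsf4 (-0.84 and -0.93). Cd28 (-0.35), Lag3 (-0.33) and Tnfrsf9 (-0.11) did not pass.

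Downstream of the T cell receptor, 9 of 20 genes were called lower and 0 higher (median -0.38), where 18.3% of all genes were called lower and 11.2% higher. The kinases Lck and Txk (-1.39 and -1.84) had the largest falls of the list. Lck, which starts signalling at the receptor, had ratios of -1.48, -3.23, -1.20 and -2.60 (mean change -1.57, SE 0.17, limma adjusted p = 3.42e-09), below the naive level on all 4 arrays and lowest with JQ1. Zap70 changed by -0.71 and -0.91 at 6 and 24 hr, and the surface proteins Cd5 by -1.10 and -0.74, Cd6 by -1.56 and -0.81 and Cd4 by -0.62 and -0.68. The receptor complex was not called: mean changes were -0.011 for Cd3e, -0.063 for Cd3g, -0.41 for Cd3d and -0.36 for Cd247. In the NF-kB list, 13 of 18 genes were called lower and 0 higher (median -0.70), set against the same shares of all genes. Besides Bcl3 these were subunits, Relb (-0.75 and -2.01), Nfkb2 (-0.26 and -1.22), Rela (-0.88 and -0.53) and Nfkb1 (-0.25 and -0.67), inhibitors such as Nfkbie (-1.26 and -1.05) and Tnfaip3 (-0.78 and -1.39), and targets such as Traf1 and Cd83. Cd83 read 3.38, 1.14, 2.45 and 0.054 (mean change -2.32, SE 0.17, limma adjusted p = 2.51e-13). The list median was -0.67 at 6 hr and -0.97 at 24 hr. Of 13 cytotoxic granule genes, 8 were called lower, or 7 of 12 without the dim Gzme, against 18.3% of all genes, with Fasl, Serpinb9 (-1.52 and -1.30) and Gzmb among them, while perforin (Prf1, -0.14) did not pass. Gzmb changed by -0.44 and -0.76 in the ratio and by -2.18 and -4.14 in the sample channel, as its reference signal differed by -1.74 and -3.38 as well.

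Of 15 Bcl2 family genes, which control survival, 6 were called lower and 3 higher, against 18.3% and 11.2% of all genes, with protective and death-promoting members in each direction. The protective Bcl2a1d (-1.83 and -1.76 at 6 and 24 hr), Bcl2l1 (-1.43 and -1.06), which encodes Bcl-xL, and Bcl2l2 (-1.10 and -1.33) fell. The effectors of mitochondrial death fell as well, Bax with ratios of 1.17, 0.20, 1.72 and -0.21 (mean change -1.45, SE 0.19, limma adjusted p = 1.1e-07) and Bak1 with changes of -1.01 and -1.59. Called higher were Bcl2l11 (0.80, adjusted p = 0.00033), which encodes the death-promoting Bim, Bid (0.53, adjusted p = 0.0159) and the protective Mcl1 (0.52, adjusted p = 0.0217). Bcl2 itself was at -0.029 (limma adjusted p = 0.932). In the AP-1 list, 9 of 23 genes were called lower and 2 higher, against the same shares of all genes (median -0.19, which turned to 0.029 with the scanner software's ratio and 0.015 under plain background subtraction). The falls were led by the Batf factors, Batf with ratios of 1.26, -0.46, 0.66 and -0.91 (mean change -1.64, SE 0.17, limma adjusted p = 1.14e-09) and Batf3 with changes of -1.14 and -2.34. For Batf3 the reference signal also differed at 24 hr, by -1.45, and the sample channel gave -1.96 and -3.79. Irf4, which pairs with Batf, changed by -0.95 and -0.39 (adjusted p = 0.00309), and Fos (0.013) and Jun (0.36) did not pass.

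The largest rises began with a histone gene. H2bc4, which encodes a histone H2B, had log2 ratios over naive cells of -0.80, 2.05, -1.30 and 1.30, below the naive level on both DMSO arrays and above it on both JQ1 arrays (mean change 2.72, SE 0.17, limma adjusted p = 6.41e-15). Mpzl1, a surface glycoprotein that binds the phosphatase SHP2, went from 2.17 to 4.74 at 6 hr and from 1.43 to 4.08 at 24 hr (mean change 2.61, SE 0.17, limma adjusted p = 1.51e-14). Fam222a read -0.96, 1.79, -0.99 and 1.38 (mean change 2.56, SE 0.17, limma adjusted p = 3.36e-14). For each of these genes both JQ1 arrays lay above both DMSO arrays. Prkar2b, a regulatory subunit of protein kinase A, changed by 2.17 and 2.10 at 6 and 24 hr, Hs3st6, a heparan sulfate sulfotransferase, by 2.41 and 1.90, and the noncoding 5031434O11Rik by 1.72 and 2.71 (limma adjusted p = 2.12e-12, 3.11e-12 and 9.03e-12). Clu, the secreted chaperone clusterin, changed by 2.06 and 2.19 (mean change 2.12, SE 0.17, limma adjusted p = 2.49e-12), but the change was -0.70 under plain background subtraction (limma adjusted p = 0.426). Ctsl, the lysosomal protease cathepsin L, read 0.061, 2.11, -0.76 and 1.83 (mean change 2.32, SE 0.17, limma adjusted p = 5.56e-13). H2ac18, another histone gene, is given below. The last of the 10, Shisa2, was a rise in the ratio alone, -0.040 and 4.58, since its sample channel gave -0.29 and -0.65 and its reference signal differed between the 24 hr arrays. It was the 1 gene of 926 past 2-fold at 24 hr whose sample channel went the other way. At 6 hr 0 of 808 did so.

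Histone genes were a divided group. Most of those that cells express with DNA replication encode transcripts without a poly(A) tail, from which the labelling primes, and many are near copies of each other, so that a probe may read more than 1 gene. Of 63 such genes on the list 41 could be tested, and 7 were called higher and 1 lower, where 11.2% and 18.3% of all genes were. The list's median was -0.043. H1f2, a linker histone, had ratios of -0.92, 1.46, -0.98 and 0.88 (mean change 2.12, SE 0.17, limma adjusted p = 4.63e-12), and H2ac18, a histone H2A, -3.48, -2.56, -3.65 and -0.20 (mean change 2.18, SE 0.27, limma adjusted p = 3.81e-08). The call of H2ac18 was lost with the scanner software's ratio and under plain background subtraction (limma adjusted p = 0.0643 and 0.112), where its mean change was 2.50 and 2.47 against 2.18 here. H2bc21 (1.51 and 0.56) and H2bc8 (0.83 and 0.69) followed, and the remaining members called higher, H3c4 and H2ac8, changed by 0.55 and 0.45 on average. H1f4, another linker histone, was called lower (-0.62 and -0.28, adjusted p = 0.0457), and 33 genes did not pass. Of 10 genes listed by symbol as histone variants, 6 were called higher and 0 lower (median 0.53). Whether each of them is expressed outside replication was not tested. H3f3b and H3f3a, both of which encode histone H3.3, changed by 1.71 and 1.10 and 1.16 and 1.13 at 6 and 24 hr, H2aw by 1.48 and 2.48 and H2bu2 by 1.13 and 1.30 (limma adjusted p = 6.66e-08, 1.45e-06, 1.36e-10 and 5.2e-07).

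The promoters of a histone gene that rose and one that fell are shown to compare the core elements of relatives that moved in opposite directions. Each line gives the 250 bases before the RefSeq start site (assembly GRCm38.p6), H1f2 from chr13:23738557-23738806, plus strand, and H1f4 from chr13:23622559-23622808, minus strand, and capitals mark the CCAAT box (CCAAT) and the TATA box (TATAAA), searched on both strands. H2bc4 is not shown.
H1f2: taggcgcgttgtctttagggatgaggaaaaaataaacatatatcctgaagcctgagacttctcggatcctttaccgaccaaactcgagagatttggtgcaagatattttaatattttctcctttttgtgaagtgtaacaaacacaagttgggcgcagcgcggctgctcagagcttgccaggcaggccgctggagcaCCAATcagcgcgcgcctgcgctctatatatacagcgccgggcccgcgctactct
H1f4: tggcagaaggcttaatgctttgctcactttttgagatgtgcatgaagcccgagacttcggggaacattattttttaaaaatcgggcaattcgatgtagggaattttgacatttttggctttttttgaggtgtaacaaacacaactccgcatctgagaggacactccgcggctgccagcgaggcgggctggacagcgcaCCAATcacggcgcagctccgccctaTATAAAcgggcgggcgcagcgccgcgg
Both hold a CCAAT box, with its first base 54 and 52 bases before the start, and H1f4 holds the letters TATAAA 27 bases before it. H1f2 has no match to these exact letters, but it holds tatatata between its CCAAT box and the start. Other forms of the TATA box were not searched, so no difference in this element is shown. Of the 7 histone genes called higher, 5 had a promoter in the table and all 5 held CCAAT, as did 80.6% of the 31 tested histone genes with a promoter that were not called higher. Among all 27025 genes with a promoter in the table the share was 37.5%. It was 54.5% for the 134 genes with a promoter that were at least 2-fold higher at both times and 35.4% for the 257 that were at least 2-fold lower, against 40.6% of the tested genes. Matches are a description of the letters and do not show a bound site.

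Among 22 genes for BET proteins, P-TEFb and elongation factors, the machinery that JQ1 acts on, 4 were called higher and 1 lower, against 11.2% and 18.3% of all genes (median 0.17). Hexim1 encodes the protein that holds P-TEFb inactive in the 7SK particle, and its rise is widely used as a marker of BET inhibition. It had log2 ratios of -1.45, 0.33, -1.44 and -0.47 (mean change 1.38, SE 0.18, limma adjusted p = 1.88e-07), higher with JQ1 at each time. Mepce, which caps 7SK RNA, changed by 0.94 and 0.59 at 6 and 24 hr, Cdk12, an elongation kinase, by 0.76 and 0.69, and Brd2 by 1.12 and 0.33 (limma adjusted p = 0.000629, 0.00101 and 0.002). Cdk7 was called lower (-0.55, adjusted p = 0.0118). Brd3 (0.40), Cdk9 (0.11) and Ccnt1 (0.20) did not pass. Myc, a gene much studied under BET inhibition, had ratios of -0.048, -0.40, 0.17 and -0.21 and did not pass either (mean change -0.37, SE 0.17, limma adjusted p = 0.103). Of 10 genes of its network only Mxd4, a Max partner that opposes Myc, was called (0.61 and 1.14, adjusted p = 0.000157).

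Genes that mark naive or resting T cells were called in both directions. Of 18 naive and quiescence genes 6 were called higher and 7 lower, against 11.2% and 18.3% of all genes. Tob1, an antiproliferative protein of resting T cells, had ratios of 0.49, 1.93, 0.044 and 1.72 (mean change 1.55, SE 0.17, limma adjusted p = 3.81e-09), and its relatives Btg1 (0.52 and 1.19) and Btg2 (0.40 and 0.85) and the factors Klf2 (1.07 and 0.46) and Klf3 (0.67 and 1.04) were called higher. The lower members included the lymphoid trafficking genes named above, Il7r, Bach2 (-1.12 and -0.81), Tcf7 and Igfbp4. Among 20 cell cycle regulators, 3 were called higher and 3 lower, near the shares of all genes. Those called higher included 2 inhibitors of cyclin-dependent kinases, Cdkn1c (1.18 and 1.49, adjusted p = 9.76e-08) and Cdkn1b (0.31 and 1.19, adjusted p = 0.0016). Of 25 replication genes 2 were called lower (Mcm3, -0.57, and Rfc4, -0.51) and 0 higher, and of 24 mitosis genes 3 (Ccnb1, -0.65, Plk1, -0.47, and Cenpa, -0.46), shares below the 18.3% of all genes. Mki67 was at -0.17.

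Programs of metabolism and growth are set against the 18.3% of all genes called lower and the 11.2% called higher. In glycolysis 3 of 21 genes were called lower, Hk1 (-0.75), Hif1a (-0.49) and Slc2a3 (-0.49), and 0 higher. In sterol and fatty acid synthesis, 6 of 27 were called lower and 3 higher, close to the shares of all genes, from Elovl6 (-1.39 and -1.87 at 6 and 24 hr, adjusted p = 2.18e-09) to Dhcr7 (0.93 and 0.84, adjusted p = 8.75e-05). Of 28 ribosome biogenesis genes 9 were called lower, led by Gar1 (-1.41 and -1.54, adjusted p = 1.08e-08), and 3 higher, Nop56 (0.74), Bop1 (0.59) and Npm1 (0.50). Among 29 genes of autophagy and lysosomes, 8 were called higher and 3 lower. Higher were the autophagy genes Ulk1 (0.78), Map1lc3b (0.78) and Atg2a (0.72), beside Ctsl and Neu1 (0.73), and lower were Hexa (-1.17 and -1.22), Gabarapl1 and Ctsz. In the stress list 5 of 18 were called higher and 1 lower. Cirbp, a cold-induced RNA-binding protein, read -1.19, 0.72, -0.82 and 0.34 (mean change 1.54, SE 0.18, limma adjusted p = 1.7e-08).

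Early and late changes were sought by size and by a test. By size alone, 55 genes were at least 2-fold lower at 6 hr and back within 0.5 (log2) of no fall at 24 hr, and 30 were higher at 6 hr in this way. In the reverse order, 78 genes were lower and 39 higher at 24 hr alone. A further 570 genes were past 2-fold at 1 time and between 0.5 and 1 at the other. The difference itself was tested by limma on the 8 Th1 arrays with DMSO or 500 nM JQ1, where the reactivated cells of the same times served as a second set. The effect at 24 hr was more positive for 202 genes (1.63%) and more negative for 139 (1.12%) at an adjusted p below 0.05. Of the 139, 96 were falls that were larger at 24 hr and 42 rises that were larger at 6 hr. Of the 202, 117 were falls that were larger at 6 hr, with medians of -0.997 at 6 hr and -0.138 at 24 hr, and 84 were rises that were larger at 24 hr. This count depended on the processing. It was 0 with the scanner software's ratio, under plain background subtraction and after the spike-in shift, where 1268, 1104 and 7 genes had an unadjusted p below 0.05 in limma, against 1800 here, and 136 with the sample channel alone.

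Changes that were more negative at 24 hr included surface proteins of effector T cells. Ly6c1 had log2 ratios over naive cells of 1.41, 0.12, 1.78 and -2.38 and Ly6a of 2.05, 0.56, 2.78 and -1.29, so both were lower with JQ1 at 6 hr and far lower at 24 hr. The effect at 24 hr minus that at 6 hr was -2.84, SE 0.20, limma adjusted p = 5.57e-14 for Ly6c1 and -2.37, SE 0.20, limma adjusted p = 1.63e-11 for Ly6a, over unstimulated and reactivated cells. The call over both times was lost under plain background subtraction for both (limma adjusted p = 0.0955 and 0.0782) and for Ly6c1 also with the scanner software's ratio (0.0567). The mean changes were no smaller there, at -2.85 for Ly6c1 and -2.87 for Ly6a under subtraction and -3.11 for Ly6c1 with the software's ratio, against -2.73 and -2.78 here. These genes belong to a family of close relatives, and a second Ly6c1 probe gave -1.79 on average where the main probe gave -2.73. Ifitm3, which blocks the entry of viruses, read 3.81, 3.45, 3.71 and 0.85, with little change at 6 hr and -0.54 and -3.84 in the sample channel (difference -2.61, SE 0.20, limma adjusted p = 6.38e-13). Granzyme A (Gzma) read 6.22, 5.79, 5.72 and 3.35, and only the JQ1 24 hr array stood apart (difference -1.83, SE 0.20, limma adjusted p = 2.15e-08). Granzyme C (Gzmc), of the same close family, changed by -0.57 and -2.72 at 6 and 24 hr. Fcmr, the receptor for IgM, changed by -0.35 and -2.54, Igfbp4 by 0.086 and -2.51, Lmna, which encodes lamin A, by -0.049 and -1.94, and Ppp1r14b by -0.29 and -1.998, and in each the difference between times was called (limma adjusted p = 1.56e-09, 8.94e-08, 1.45e-05 and 0.00677). For Lmna and Ppp1r14b the DMSO arrays differed as well, by 1.26 and 1.44 between 6 and 24 hr, more than the 6 hr arrays differed from each other. The same held for Igfbp4 (0.815) and Fcmr (0.65). In NF-kB signalling Traf1 went further at 24 hr, -1.85 and -2.89 (difference -1.32, SE 0.21, limma adjusted p = 3.74e-05), and Nfkbia, the inhibitor IkB alpha, read 0.57 and -0.89, on either side of 0 (difference -0.90, SE 0.22, limma adjusted p = 0.0118). In the reactivated cells that enter this test, the changes at 6 and 24 hr were 0.87 and 0.53 for Nfkbia and -0.97 and -1.26 for Ppp1r14b. They were 0.22 and -1.01 for Igfbp4 and 0.33 and -0.68 for Lmna. For each of these genes they lay closer together than in the unstimulated cells.

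Rises that were larger at 24 hr included H2ac18, given above, at 0.92 and 3.45 at 6 and 24 hr (difference 2.10, SE 0.21, limma adjusted p = 1.56e-09). Gm1673 was at -0.27 and 1.51, Igf1r, an insulin-like growth factor receptor, at -0.27 and 1.33, Cd1d1, which presents lipids to NKT cells, at -0.32 and 1.14, and Selenbp1 at -0.67 and 1.03. The differences between times were called for all 4 (limma adjusted p = 2.97e-07, 0.00374, 0.00341 and 0.00621). That test also takes in the reactivated cells. There the changes at 6 and 24 hr lay closer together for Igf1r (0.25 and 0.69), Cd1d1 (-0.47 and 0.067) and Selenbp1 (0.44 and 0.75). For Gm1673 they were -0.335 and 1.175. Zfp598 changed by 0.36 and 2.50 in the ratio but by 0.37 and 0.63 in the sample channel alone, so most of its late rise lay in the reference channel, as for Shisa2.

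**Figure D4:**
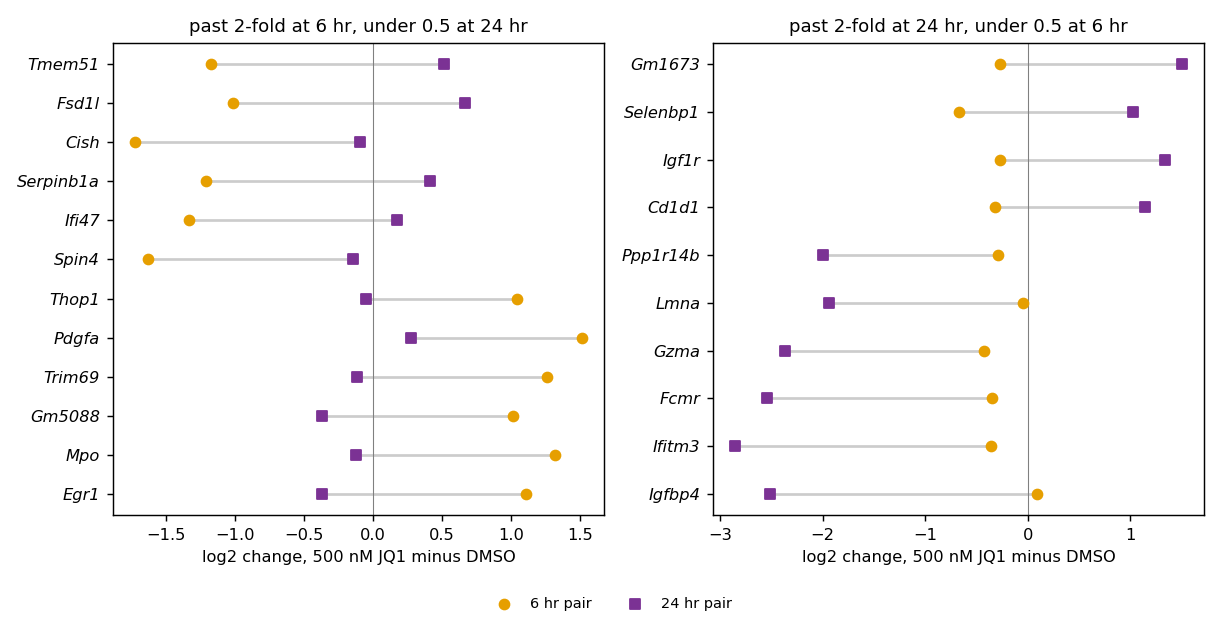
Log2 change (500 nM JQ1 minus DMSO) in the 6 hr pair (circles) and the 24 hr pair (squares) for the named genes past 2-fold at 1 time and under 0.5 in that direction at the other; each point is 1 pair of arrays, and Shisa2 and Zfp598 are left out because their rise lay in the reference channel. Cish, Ifi47 and Egr1 return toward 0 at 24 hr (left), and Ifitm3, Fcmr and Igfbp4 are near 0 only at 6 hr (right).

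Falls that were larger at 6 hr included feedback and interferon gamma response genes. Cish, the inhibitor that STAT5 induces to restrain cytokine signals, had ratios of 3.07, 1.35, 3.65 and 3.55, and the JQ1 6 hr array alone was low (difference 0.96, SE 0.23, limma adjusted p = 0.00826). Ifi47, a GTPase induced by interferon gamma, read -0.079, -1.41, -0.003 and 0.17 (difference 1.34, SE 0.20, limma adjusted p = 2.63e-05). Il7r, the survival receptor of resting T cells, changed by -2.44 and -0.50 at 6 and 24 hr (difference 1.40, SE 0.22, limma adjusted p = 3.74e-05), and lymphotoxin beta (Ltb), a Th1 product that was still lower at 24 hr, by -2.80 and -1.43 (difference 1.84, SE 0.21, limma adjusted p = 7.1e-08). Tmem51 (-1.18 and 0.51), Serpinb1a (-1.21 and 0.41) and Spin4 (-1.63 and -0.15) were lower at 6 hr and near or above the DMSO level at 24 hr, though for Spin4 the DMSO ratio itself was 2.88 at 6 hr and 0.96 at 24 hr, beside 1.25 and 0.82 with JQ1, and the difference was called for each (limma adjusted p = 0.000308, 0.029 and 0.00921). That test also takes in the reactivated cells, where the changes at 6 and 24 hr lay closer together, at -0.57 and 0.17 for Tmem51, -0.56 and -0.47 for Serpinb1a, -1.27 and -0.91 for Spin4 and -0.87 and -0.57 for Cish. Fsd1l read -1.01 and 0.67 with its brightest probe, whereas its second probe gave 0.21 on average. Among genes higher at 6 hr alone, Egr1, an immediate early factor, read 0.44, 1.54, -1.54 and -1.91, with the highest value on the JQ1 6 hr array (difference -1.04, SE 0.21, limma adjusted p = 0.00222). Pdgfa (1.51 and 0.27), Mpo (1.31 and -0.13) and Trim69 (1.26 and -0.12) were higher at 6 hr and the difference was called, though the sample channel of Trim69 gave 1.51 and 0.78, while for Gm5088 (1.01 and -0.37) and Thop1 (1.05 and -0.049) it was not (limma adjusted p = 0.143 and 0.269). Within the P-TEFb list Hexim1 and Brd2 rose more at 6 hr than at 24 hr (differences -0.96 and -0.78, limma adjusted p = 0.00335 and 0.0221).

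Interferon-stimulated genes were called lower in 16 of 29 cases and higher in 1, Stat2 (0.58, adjusted p = 0.00789), with a median of -0.58, where 18.3% of all genes were called lower and 11.2% higher. The difference between times was called for 11 of the 29, 6 more positive and 5 more negative at 24 hr, against 1.63% and 1.12% of all genes. The guanylate binding protein Gbp5 fell most, with ratios of 4.21, 1.42, 2.83 and 1.04 (mean change -2.29, SE 0.19, limma adjusted p = 4.54e-12), and Gbp3 changed by -2.03 and -1.24. Larger at 6 hr were the changes of Irgm1 (-1.55 and -0.57), Gbp6 (-1.18 and -0.48), Igtp (-0.73 and 0.18), Iigp1 (-0.63 and 0.13), Ifi47 and Isg15 (-0.47 and 0.21), of which the first 5 are GTPases induced by interferon gamma. Larger at 24 hr were the falls of Isg20 (-1.37 and -2.54), an RNase, Bst2 (-0.16 and -1.52), which tethers budding virus, Oasl2 (-0.47 and -1.53) and Tap1 (-0.27 and -0.99), and Irf7 was 0.64 at 6 hr and 0.075 at 24 hr. Irf1 (-0.17), a transcription factor of the interferon response, did not pass.

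**Figure D5:**
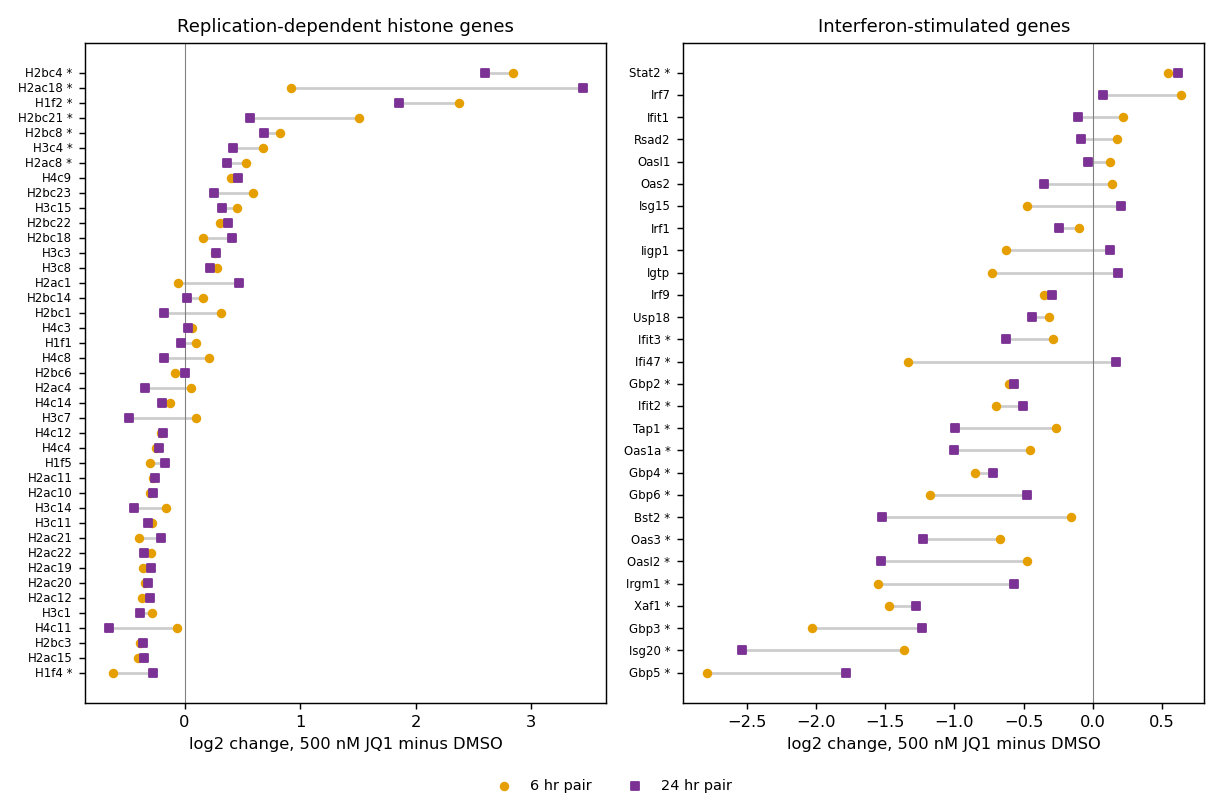
Log2 change (500 nM JQ1 minus DMSO) in the 6 hr pair (circles) and the 24 hr pair (squares) for the 41 replication-dependent histone genes tested (left) and 28 of the 29 interferon-stimulated genes tested (right), 1 pair of arrays per point; an asterisk marks a call by limma over both times. Most histone genes lie near 0 below a few large rises (H2bc4, H2ac18, H1f2), while 16 interferon genes were called lower, with either the 6 hr or the 24 hr point further out.

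The promoters of Gbp5, Irgm1 and Nfkbia are shown to compare the elements that interferon and NF-kB act on. Each line gives the 250 bases before the RefSeq start site (GRCm38.p6), Gbp5 from chr3:142496684-142496933, plus strand, Irgm1 from chr11:48871421-48871670, minus strand, and Nfkbia from chr12:55492648-55492897, minus strand. Capitals mark an interferon response element (GAAA, any 2 bases, GAAA), a GAS element bound by STAT dimers (TTC, any 3 bases, GAA) or an NF-kB site (GGG, any 2 bases, TT, any base, CC), each searched on both strands.
Gbp5: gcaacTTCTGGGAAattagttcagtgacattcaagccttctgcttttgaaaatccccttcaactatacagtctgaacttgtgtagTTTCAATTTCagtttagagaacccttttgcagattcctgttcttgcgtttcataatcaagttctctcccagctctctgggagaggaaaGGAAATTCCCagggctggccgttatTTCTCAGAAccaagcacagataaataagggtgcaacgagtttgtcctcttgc
Irgm1: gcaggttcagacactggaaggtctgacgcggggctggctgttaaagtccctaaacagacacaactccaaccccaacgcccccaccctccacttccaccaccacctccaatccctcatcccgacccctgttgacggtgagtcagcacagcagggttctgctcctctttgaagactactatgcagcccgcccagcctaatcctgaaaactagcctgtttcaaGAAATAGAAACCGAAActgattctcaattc
Nfkbia: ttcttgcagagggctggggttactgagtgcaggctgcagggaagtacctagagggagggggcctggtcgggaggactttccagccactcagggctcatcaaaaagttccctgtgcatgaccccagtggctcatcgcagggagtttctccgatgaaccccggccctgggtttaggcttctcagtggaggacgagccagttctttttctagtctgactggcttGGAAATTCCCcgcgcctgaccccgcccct
Gbp5, lower at both times, holds 1 interferon response element, 2 GAS elements and 1 NF-kB site. Irgm1, lower mostly at 6 hr, holds 2 overlapping interferon response elements within 30 bases of the start, and Nfkbia holds 1 NF-kB site 29 bases before it. Of the 257 genes at least 2-fold lower at both times that had a promoter in the table, 11.7% held the NF-kB letters, 14.4% the GAS letters and 7.39% the interferon letters, where 5.75%, 7.37% and 3.21% of the 9964 tested genes with a promoter did. Among the 134 genes at least 2-fold higher at both times these shares were 5.22%, 4.48% and 1.49%, and among all 27025 genes with a promoter they were 4.71%, 8.13% and 3.46%. The genes whose fall was larger at 6 hr and those whose fall was larger at 24 hr held the interferon letters in 6.59% of 91 and 5.33% of 75 promoters. These shares describe the lists and were not tested.

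Other arrays of the series are set beside these genes for scale. The reactivated Th1 pairs and the Th2 pair share no array with the unstimulated Th1 pairs. The reactivated pairs lay on the same slides as the unstimulated pairs, slide 1 for 6 hr and slide 3 for 24 hr. The Th2 DMSO array lay on slide 1 and the Th2 JQ1 array on slide 2, so the Th2 change was read across slides. The 319 genes at least 2-fold lower at both times had median changes with 500 nM JQ1 of -1.08 and -0.99 in reactivated Th1 cells at 6 and 24 hr and of -1.34 in unstimulated Th2 cells, whose control has no settled time, where medians over all genes were -0.080, -0.014 and -0.066. The 162 genes at least 2-fold higher had 1.16, 1.34 and 1.28. In these pairs 54.9%, 48.9% and 72.1% of the 319 genes were at least 2-fold lower, against 5.88%, 4.32% and 5.82% of all genes. At the lower dose of 50 nM for 6 hr, the genes chosen at 24 hr, which share no array with it, had medians of -0.33 for the 629 lower and 0.36 for the 297 higher genes, and 0.636% and 1.35% of them passed 2-fold in that direction, where the median of all genes was 0.017 and 0.0403% and 0.0483% of them were 2-fold lower and higher. The 50 nM array shares the DMSO 6 hr array with the 500 nM pair of that time, so gene values are only set side by side. Il21 read -1.12 at 50 nM and -3.58 at 500 nM, Bcl3 -0.57 and -3.13, H2bc4 1.35 and 2.85, and Hexim1 0.72 and 1.78. Whether the effect differs between states or lineages was not tested here.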

How the data were processed

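Each array carried Cy3-labelled sample RNA and Cy5-labelled RNA of naive T cells, with no dye swap, and was scanned by the authors. Per the file headers, signals were extracted with version 10.7.1.1 of Agilent Feature Extraction, and the grid's annotation was on mm9. The deposited intensity values (median pixel intensities of spot and local background) were the starting point. The deposited log10 ratio of the software and the authors' log2 value table, whose normalization is not given in the sources used here, served as alternatives. Using limma 3.58.1 (R 4.3.3), intensities were corrected by normexp (offset 50) and loess-normalized within the array, and the log2 ratio of Cy3 over Cy5 was taken. Of 55681 probes 26437 carried 1 symbol, and the brightest probe stood for each of 20028 symbols. The 12417 genes well above background in Cy3 on at least 2 of the 4 arrays were tested.

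JQ1 was compared with DMSO by limma with time as a block (1 residual degree of freedom, moderated across genes), and the effect at 24 hr with that at 6 hr on 8 Th1 arrays, unstimulated and reactivated. P-values were adjusted after Benjamini and Hochberg over all genes (threshold 0.05). A 2-fold change in 1 pair is descriptive, as is the early or late class, which needed a change under 0.5 (log2) at the other time. On simulated data with known changes among 12417 genes, 100% of 2-fold changes over both times were recovered with 11 false calls, and 77% of 2-fold differences between times with 4 false calls. The simulated noise was independent between arrays and drawn with the fit's own spread. These figures therefore check the fit and give no error rate for the real arrays, where errors may be shared through slide or scaling. Precision is limited by the number of arrays.

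The arrays, gene lists and rules were chosen with earlier results of these data known. Named genes were the 10 largest mean rises and falls called and above background on all 4 arrays, the 6 largest early and late differences in each direction, the 5 largest bounds in each direction, and up to 6 members a list. Further members of the lists were named after their values were seen. Alternatives changed the normalization, spike-in scaling, background correction, channel, source of the ratio, filter, probe rule, fold threshold, block and arrays. Promoter windows came from a RefSeq table (GRCm38.p6), matched by symbol for 9964 of the 12417 genes. No array of other groups entered the 4-array comparison. Some genes that count in the lists are not reported here by name.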

Additional observations from a re-analysis of the deposited data

Results flagged for a closer look

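For 341 genes the effect of 500 nM JQ1 differed between 24 hr and 6 hr by limma over unstimulated and reactivated Th1 cells. As each time is 1 slide, time and slide cannot be told apart, and no gene was called under 3 of the alternative scalings and background corrections given below. The difference, as the effect at 24 hr minus that at 6 hr on the log2 scale, was called for the following named genes.

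Among genes lower at 24 hr than at 6 hr, the Ly6 surface proteins differed by -2.84 (Ly6c1) and -2.37 (Ly6a). For other late falls it was -2.61 (Ifitm3), -2.02 (Fcmr), -1.92 (Igfbp4), -1.83 (Gzma), -1.45 (Lmna) and -0.999 (Ppp1r14b). Genes higher at 6 hr alone differed by -1.31 (Pdgfa), -1.19 (Mpo), -1.04 (Egr1) and -1.03 (Trim69).

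In the positive direction, genes lower at 6 hr alone differed by 1.34 (Ifi47), 1.23 (Fsd1l), 1.21 (Tmem51), 0.96 (Cish), 0.92 (Spin4) and 0.86 (Serpinb1a). Among rises, the difference was 2.10 for H2ac18, 1.64 for Gm1673, 1.02 for Igf1r, 1.002 for Selenbp1, 1.001 for Cd1d1, 0.97 for 5031434O11Rik and 0.76 for Ctsl. It was 2.44 for Shisa2 and 1.29 for Zfp598, but at 24 hr the signal of the naive reference RNA differed by at least 2-fold between the JQ1 and DMSO arrays for both, and the sample channel of Shisa2 moved the other way. For Trim69 the sample channel was 1.51 higher at 6 hr and 0.78 higher at 24 hr, so part of its difference lay in the reference channel.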

How the results depend on the processing

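With 1 array per condition, p-values rest on 1 residual degree of freedom moderated over genes, and signal over background limits dim probes. The labels carry no replicate numbers, so arrays could not be paired by replicate and were matched by time alone, with time as the block. No array could be left out of the comparison of times, since 7 arrays leave no residual degree of freedom. Except where stated, the cause of a shift was not tested. Of the tested mean changes of named genes, 189 kept their direction and side of the threshold, 8 lost the call (H2ac18, Ly6a, Ly6c1 and Shisa2) and 3 reversed. In 1 pair alone, with no test, 39 kept their direction and 1 reversed. Early and late differences of named genes stayed within 0.2 (log2) in 150 cases, moved further in 85 and reversed in 3. Relative to the shift of all genes, medians of gene lists moved beyond the spread in 23 cases and not in 247, and that of the Th1 genes stayed between -1.17 and -0.62.

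The 3668 genes called over both times became 714 (114 higher, 600 lower) after the spike-in shift, 1638 (602 and 1036) with the software's ratio, 826 (259 and 567) under background subtraction with a floor, and 613 (203 and 410) with no block of time. Median centring gave 811 higher and 3607 lower. A fit on 8 arrays called 1190 higher and 1992 lower, and leaving out an array of it, which removes its pair, gave 994 (without either 24 hr unstimulated array) to 1206 (without either 6 hr array). Called differences between times were 0 after the spike-in shift, with the software's ratio and under subtraction, 136 with Cy3 alone, 60 with the authors' value table, 50 with no filter and 125 with the mean of probes.

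Genes at least 2-fold lower at 6 hr were 833 with median centring, 1143 with the software's ratio and 1155 under subtraction, and those higher 141, 691 and 623, with 458 after the spike-in shift. At 24 hr, 1234 and 1372 were lower with the software's ratio and subtraction and 2065 after the spike-in shift, and 714, 687 and 77 were higher, with 168 under median centring. A 1.5-fold threshold gave 1648 lower and 988 higher at 6 hr, and 1690 and 1058 at 24 hr. The share of genes lower at 6 hr that were also lower at 24 hr was 93.4% after the spike-in shift and 63.5% at 1.5-fold. For genes that were higher it was 14.6% after the spike-in shift, 53.3% with the software's ratio and 51.0% under subtraction.

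Reversed values were the Shisa2 change (-0.47 with Cy3 alone, -0.65 in the authors' value table, -0.040 without the 24 hr pair, against 4.58 without the 6 hr pair), its difference between times (-0.36 with Cy3 alone, -0.73 in the authors' table), the Clu change under subtraction (-0.70) and the Fsd1l difference under subtraction (-2.57). Medians of lists near 0 changed sign in some settings: autophagy (-0.026, median centring), cell cycle (-0.058, Cy3 alone), replication histones (0.020, mean of probes), AP-1 (0.029 and 0.015, software's ratio and subtraction), Myc and Max (up to 0.10) and sterol synthesis (up to 0.039).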
